A study of Mus musculus with 21 samples.

Results

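The nuclear genes for complexes II to V of the mitochondrial respiratory chain were followed in hindlimb muscle of mice with and without the transcription factors FoxO1, FoxO3 and FoxO4 and with and without streptozotocin (STZ) diabetes. The members are 41 genes chosen by function: 4 of complex II, 10 of complex III with cytochrome c, 13 of complex IV and 14 of complex V. No measured value was in the rule, but earlier results of these data were known when the members were chosen. All 41 were found among the 46071 genes of the count table, and 40 passed the filter on low counts that left 12658 genes for testing.

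Complex II (succinate dehydrogenase) feeds electrons from the citric acid cycle into ubiquinone, complex III (the bc1 complex) hands them to cytochrome c, and complex IV (cytochrome c oxidase) passes them to oxygen. Complex V, the ATP synthase, makes ATP from the proton gradient that this flow builds. Complex II is made from nuclear genes alone, whereas III, IV and V join nuclear subunits with a few encoded by mitochondrial DNA. Skeletal muscle carries its own versions of some complex IV subunits, the heart and muscle isoforms Cox6a2, Cox7a1 and Cox8b.

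The design held 21 RNA libraries. All mice came from a mixed background of C57Blk6, C57Blk6J and 129 strains, with littermates as controls. The floxed controls (4 libraries, FoxOTlox, no STZ) carry loxP-flanked Foxo1, Foxo3 and Foxo4 alleles, and the triple knockouts (TKO, 6 libraries, FoxOTKO, no STZ) also carry a Cre driven by the skeletal actin promoter ACTA1, so that deletion is limited to cells that use this promoter. STZ, which destroys pancreatic beta cells and so lowers insulin, was given at 150 mg/kg for 5 floxed libraries (STZ floxed) and 6 TKO libraries (STZ TKO), and citrate buffer served as its control. Females had another 75 mg/kg on day 3, and random glucose had to pass 300 mg/dL. RNA came from quadriceps mixed with gastrocnemius. The labels give neither age nor sex for a library, nor whether each library is a separate animal, so p-values measure the spread between libraries.

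Depth was 2951290 to 7687823 counts per library. Foxo4 was at 160 ± 29.5 CPM (counts scaled to a common library size with TMM factors, SD, n = 4) in floxed muscle and 6.24 ± 1.52 (n = 6) in TKO, and at 190 ± 7.72 (n = 5) in STZ floxed and 7.43 ± 2.7 (n = 6) in STZ TKO muscle. Foxo1 was at 68.9 ± 30.6 against 14.6 ± 3.97, and at 56.8 ± 21.1 against 15.8 ± 5.61 under STZ. Foxo3 was at 73.1 ± 11.3 against 96.1 ± 16.6 over the whole gene, which does not check a deletion of only part of it. The 8 muscle fibre markers summed to at least 149000 CPM in every floxed library. The lowest muscle fibre sum, 57400 CPM, was in STZ floxed library 17, which was also lowest in the group for fibroblast, adipocyte and fast-fibre markers. The library codes in the titles form 6 runs of consecutive codes. Runs 4 and 5 (libraries 13 to 18) hold no untreated floxed library, so for those the run and the absence of that control cannot be told apart. The labels do not call the runs batches.

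The promoters of these genes are shown because the members' estimates share a direction under STZ and because the factors named here are read as transcripts further on. RefSeq windows (GRCm38.p6, from 250 bases before to 50 after each start) were matched by symbol to 32 of the 41 members. The NRF1 sequence GCGCANGCGC was present on either strand in 10 of 32 (31.2%), against 5.19% of all 27025 genes with a window. The GABP sequence CCGGAAG was present in 12 (37.5% against 9.93%), YY1's AAGATGGCG in 2 (6.25% against 1.64%) and the estrogen-related receptor sequence TCAAGGTCA in 2 (6.25% against 0.466%). The forkhead sequence GTAAACA was present in 1 member, Cox7a2 (3.12% against 4.05%). No match of one motif overlapped a match of another. A match is a description of letters and not a bound site. The stretches below lie upstream of the annotated exons, 5′ to 3′ on the gene's strand, with matches to these 5 motifs in capitals. They are those of 3 subunits that passed a test, of Sdha, Sdhd and Cox6a1 as examples with matches, and of the muscle isoforms Cox7a1 and Cox8b, whose windows held none.
Cox5b, chr1:36691329-36691448, plus strand: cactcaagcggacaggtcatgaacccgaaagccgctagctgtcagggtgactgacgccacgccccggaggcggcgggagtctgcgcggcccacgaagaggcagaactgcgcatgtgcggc
Atp5g3, chr2:73911327-73911446, minus strand: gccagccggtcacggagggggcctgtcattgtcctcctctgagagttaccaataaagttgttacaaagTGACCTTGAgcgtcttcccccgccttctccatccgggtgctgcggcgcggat
Atp5l, chr9:44920752-44920871, minus strand: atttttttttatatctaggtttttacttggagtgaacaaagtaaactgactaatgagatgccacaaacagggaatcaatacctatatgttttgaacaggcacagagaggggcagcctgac
Sdha, chr13:74350281-74350308, minus strand: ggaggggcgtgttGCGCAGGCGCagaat
Sdhd, chr9:50603850-50603909, minus strand: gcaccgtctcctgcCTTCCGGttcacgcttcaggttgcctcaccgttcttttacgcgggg
Cox6a1, chr5:115348982-115349101, minus strand: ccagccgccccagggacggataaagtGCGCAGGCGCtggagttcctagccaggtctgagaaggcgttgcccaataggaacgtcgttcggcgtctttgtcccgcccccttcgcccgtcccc
Cox7a1, chr7:30184024-30184143, plus strand: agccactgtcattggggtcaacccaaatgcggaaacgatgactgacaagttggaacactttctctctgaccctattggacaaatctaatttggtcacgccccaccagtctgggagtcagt
Cox8b, chr7:140900447-140900566, minus strand: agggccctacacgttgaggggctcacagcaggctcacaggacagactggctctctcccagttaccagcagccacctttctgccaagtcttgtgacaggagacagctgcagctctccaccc
The Atp5g3 stretch carries the estrogen-related receptor sequence on the opposite strand, Sdha the NRF1 sequence, Sdhd the GABP sequence and Cox6a1 the NRF1 sequence. In Cox5b and Atp5l the printed stretch holds none of the 5, and the GABP matches of the Atp5l window lie outside it.

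In untreated floxed muscle the 4 most abundant members per length were ATP synthase genes. Atp5b, the catalytic beta subunit, stood at 1530 ± 186 CPM per kilobase of transcript (n = 4). Atp5c1, the gamma subunit of the central stalk, followed at 899 ± 94.4, Atp5g3, a gene for the c subunit of the membrane ring, at 838 ± 69 and Atp5a1, the alpha subunit, at 776 ± 146. The range of Atp5b did not meet that of Atp5c1, and the ranges of Atp5c1, Atp5g3 and Atp5a1 overlapped. The most abundant subunit of complex IV was the muscle isoform Cox6a2 (566 ± 91.3), of complex III Uqcr11 (535 ± 138) and of complex II Sdha (376 ± 29.6), the flavoprotein that oxidizes succinate. At the low end were Cycs, cytochrome c itself, at 14.7 ± 4.48 and Cox8a at 11 ± 1.75. The low end also held ATP synthase genes, among them Atp5l at 37.1 ± 7.1 and Atp5g1 at 20.4 ± 3.09. The values of Cycs and Atp5g1 were divided by long annotated transcripts, of 3.123 and 4.66 kilobases. Uqcrc1, a core subunit of complex III, had 0 counts in 19 libraries and 3 counts in all 21 together, while Uqcrc2, the other core subunit, had 590 ± 215 CPM. No exon of Uqcrc1 overlaps another annotated gene, and the reason for its near absence from the table was not tested.

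**Figure D1:**
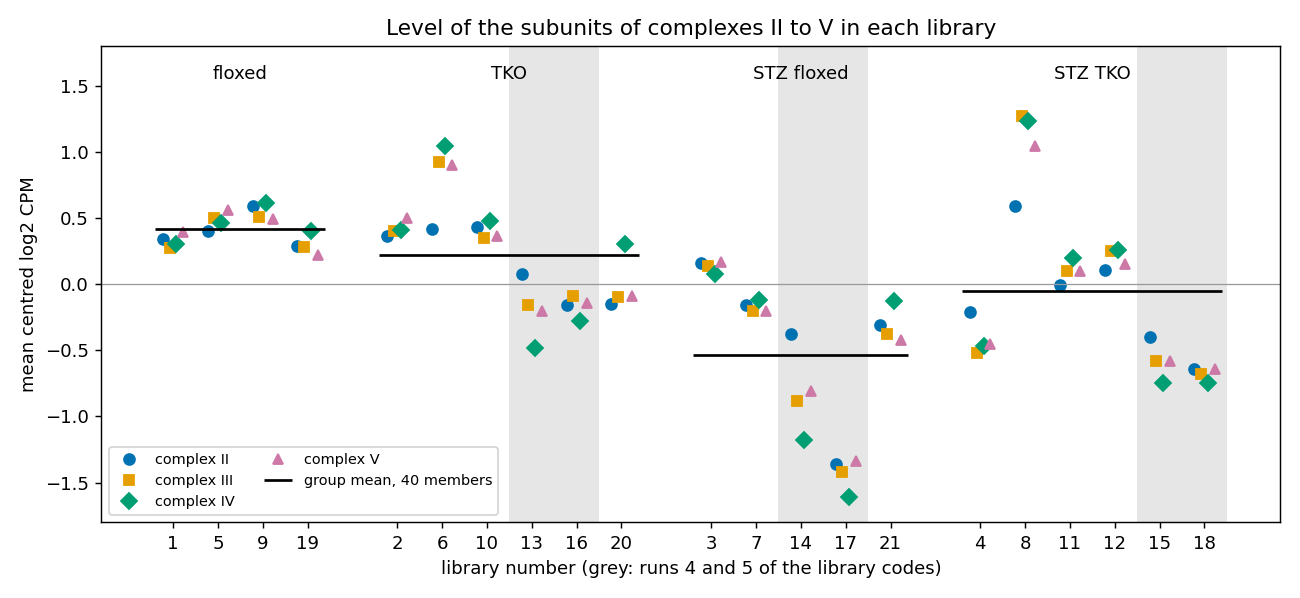
Mean level of the tested subunits of each complex in every library, as log2 CPM centred on each gene's mean of the 21 libraries; black lines are group means over the 40 members. The 4 floxed libraries lie between 0.30 and 0.54 when averaged over all members, STZ floxed libraries between -1.45 and 0.14.

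The first comparison asked what diabetes does to these genes in muscle with FoxO. In STZ floxed muscle all 40 tested members had a lower estimate than in floxed muscle, with a median log2 fold change of -0.84, against 0.02 over all genes tested. Cox5b, Atp5g3 and Cyc1 fell past the threshold (edgeR quasi-likelihood test, Benjamini-Hochberg adjusted p under 0.05), which is 3 of 40 members. Over all genes 1.35% passed in either direction and 0.853% were lower. At an unadjusted p under 0.05, 22 of 40 members were lower, against a background of 7.67% of all genes. For 19 members every STZ floxed library was below every floxed library, which held for 5.17% of all genes. Together the members took 1.29 ± 0.0502% of all counts in floxed muscle and 0.828 ± 0.173% in STZ floxed muscle. In whole muscle, fewer mitochondria-rich cells and less RNA per cell cannot be told apart.

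Complex II subunits had a median of -0.66, and none of the 4 passed the test. Sdha was at 1000, 1190, 1140 and 1040 CPM in floxed libraries 1, 5, 9 and 19 and at 906, 848, 839, 441 and 757 in STZ floxed libraries 3, 7, 14, 17 and 21. No STZ floxed library reached the floxed range, and library 17 was the lowest. The log2 fold change of Sdha was -0.53 ± 0.21 (SE, adjusted p = 0.232, edgeR). Sdhb, the iron-sulfur subunit, had the lowest estimate at -1.10 ± 0.37 and the smallest p of the complex (adjusted p = 0.141). Sdhd, a membrane anchor, had the highest at -0.51 ± 0.24.

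Complex III and cytochrome c had a median of -0.84 over 9 tested genes, and Cyc1 passed. Cyc1 (ENSMUSG00000022551, chr15:76343523-76346260 in GRCm38, as are the gene positions that follow) encodes cytochrome c1, which hands electrons to cytochrome c. It stood at 389, 371, 285 and 412 CPM in the floxed libraries and at 281, 152, 243, 130 and 203 in STZ floxed libraries 3, 7, 14, 17 and 21. The groups came close without meeting, with floxed library 9 at 285 just above STZ floxed library 3. The log2 fold change of Cyc1 was -0.85 ± 0.22 (adjusted p = 0.0495), at the edge of the threshold. Cycs had the lowest estimate of the complex, -1.32 ± 0.46 (adjusted p = 0.172), from 46 ± 14 CPM in floxed to 18.5 ± 8.7 in STZ floxed muscle. Uqcrc2 had the highest at -0.49 ± 0.26, and Uqcrfs1, the Rieske iron-sulfur protein, lay at -0.72 ± 0.23 (adjusted p = 0.118).

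Complex IV subunits had a median of -0.88 over 13 genes, and Cox5b passed. Cox5b (ENSMUSG00000061518, chr1:36691449-36693681) encodes a small subunit on the matrix side. It was at 80.3, 107, 71.5 and 82.7 CPM in the floxed libraries and at 60.7, 34.3, 35.5, 23.6 and 33.9 in STZ floxed libraries 3, 7, 14, 17 and 21. Every STZ floxed value was below every floxed value, and library 3 was the nearest. Cox5b fell by 1.18 ± 0.26 (adjusted p = 0.0263), to 0.442 of the floxed level. Cox7a1 had the lowest estimate of all members, -1.73 ± 0.75, but also the widest scatter and an adjusted p of 0.289. It was at 114 to 146 CPM in floxed muscle and at 80.1, 44.7, 9.36, 2.73 and 54.9 in STZ floxed libraries 3, 7, 14, 17 and 21. The very low pair, libraries 14 and 17, belong to runs 4 and 5. Cox7c and Cox8a had the highest estimates, both -0.35.

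Complex V subunits had a median of -0.88 over 14 genes, and Atp5g3 passed. Atp5g3 (ENSMUSG00000018770, chr2:73908447-73911326) was at 546, 596, 667 and 615 CPM in the floxed libraries and at 437, 294, 275, 170 and 293 in STZ floxed libraries 3, 7, 14, 17 and 21. The groups did not overlap, and libraries 7, 14 and 21 were close to one another. Atp5g3 fell by 1.04 ± 0.23 (adjusted p = 0.0269). The catalytic core genes Atp5a1 and Atp5b were at -0.79 ± 0.24 (adjusted p = 0.111) and -0.71 ± 0.23 (adjusted p = 0.126). Atp5j2, the f subunit of the membrane part, had the lowest estimate at -1.22 ± 0.56, and Atp5g2, another gene for subunit c, the highest at -0.25 ± 0.22.

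**Figure D2:**
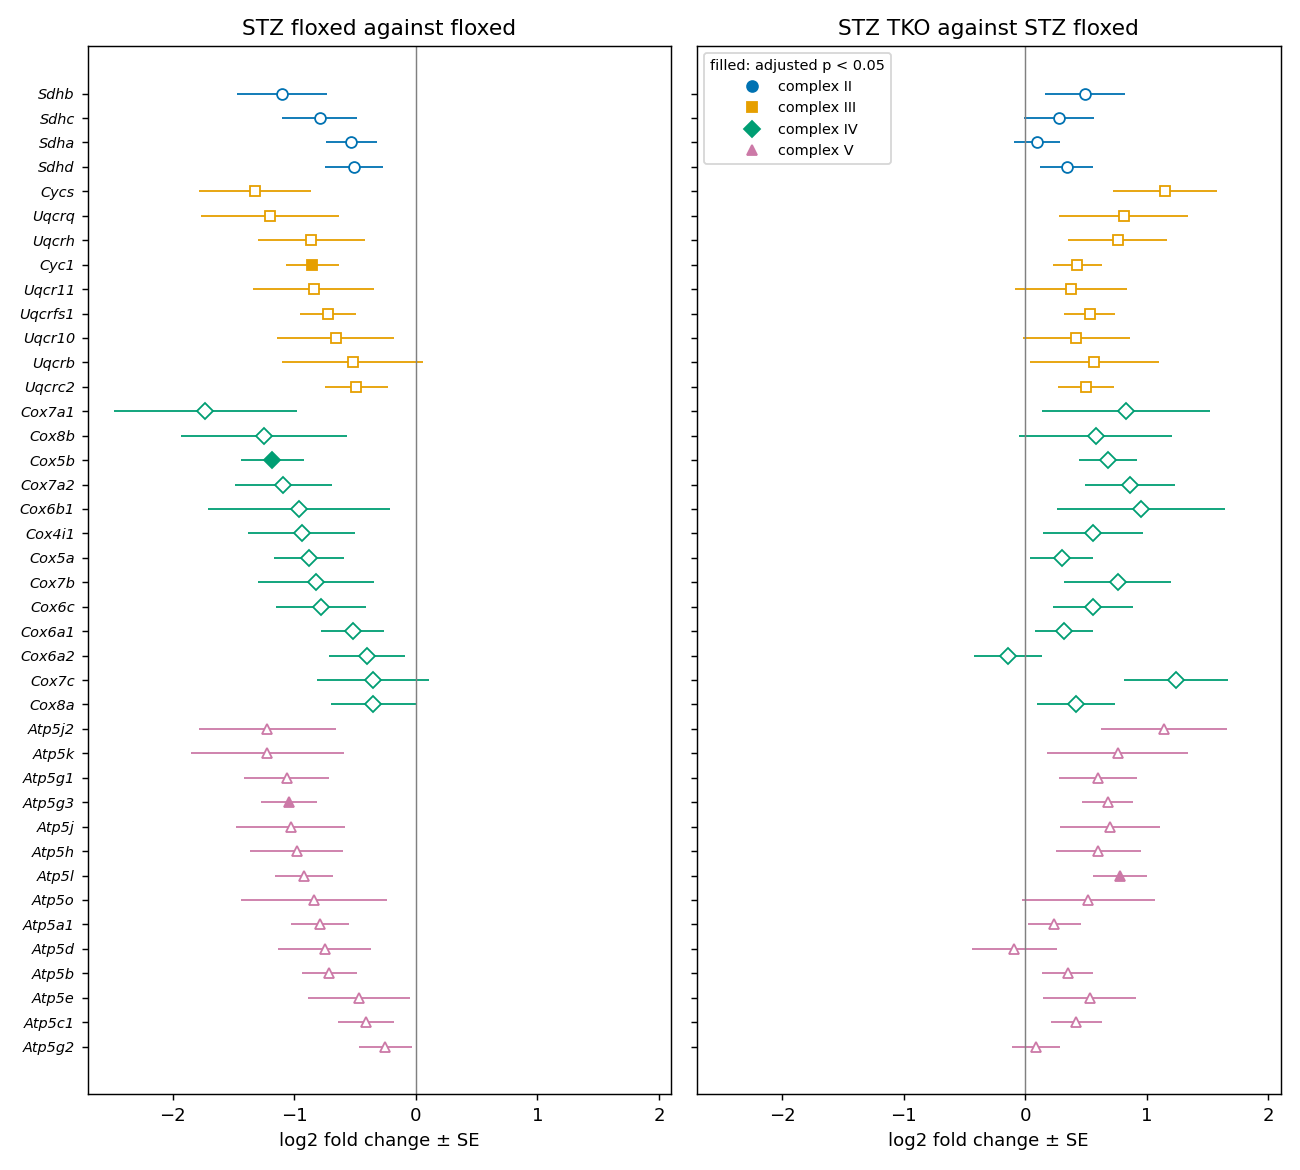
Log2 fold change (points) with its standard error (bars) for the 40 tested members, by complex; filled symbols passed an adjusted p of 0.05. On the left all 40 estimates lie below 0 (STZ floxed against floxed, 3 filled); on the right 38 of 40 lie above 0 (STZ TKO against STZ floxed, 1 filled).

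The 3 genes of subunit c encode the same mature protein with different import sequences. Their shares below are of read counts, not corrected for transcript length, and no protein was measured. Atp5g3 gave 81 ± 2.79% of their summed counts in floxed muscle and 77.3 ± 2.68% in STZ floxed muscle. Atp5g1 gave 12.8 ± 2.36% and 11.8 ± 1.36%. The share of Atp5g2 was 5.64 to 6.91% in floxed libraries and 7.33 to 15.8% in STZ floxed libraries. In TKO muscle it was 5.75 ± 0.909% and 7.2 ± 1.2% in STZ TKO muscle. These shares were not tested.

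The STZ effect in floxed muscle was then read within the runs of library codes. Runs 1, 2 and 6 hold 1 floxed and 1 STZ floxed library each. In run 1 the STZ floxed library was lower for 31 of 40 members with a median of -0.16. In run 2 it was lower for 35 members with a median of -0.72, and in run 6 for 39 with a median of -0.60. The log2 difference of Cox5b was -0.40, -1.63 and -1.28 in these runs, so all 3 pairs pointed the same way. With the run as a block the median was -0.54 and 3 members passed. With only the runs that hold a floxed library, a setting chosen after seeing the data, the median was -0.50 and no member passed.

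Leaving out library 1, 5, 7, 14, 17, 19 or 21 left no member past the threshold, library 9 left 1, and library 3 raised the number to 6. DESeq2 called 6 members lower, where it called 1.86% of all genes lower, and limma-voom 13, where it called 3.81%. Muscle fibre markers were also lower in STZ floxed muscle, where none of the 8 passed and the median was -0.44 (3 at an unadjusted p under 0.05). Slow fibre markers were lower for 5 of 7 (median -0.51) and fast 2B fibre markers for 2 of 3 (median -0.30). The oxidative fast fibre marker Myh2 was at -0.79, and none of these passed. Fibroblast markers (2000 ± 705 against 4380 ± 1230 summed CPM) and tendon markers (412 ± 260 against 867 ± 183) were lower, with 1 of each list past the threshold. Denervation markers were higher for 6 of 7 (median 0.69), and none passed. The part of these marker lists in the result was not tested. Macrophage markers summed to 169 to 279 CPM in STZ floxed and 152 to 195 in floxed muscle, and with their level as a covariate 4 members passed. For this covariate, the run block and the left-out libraries the share of all genes called is not given. These counts therefore have no background.

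**Figure D3:**
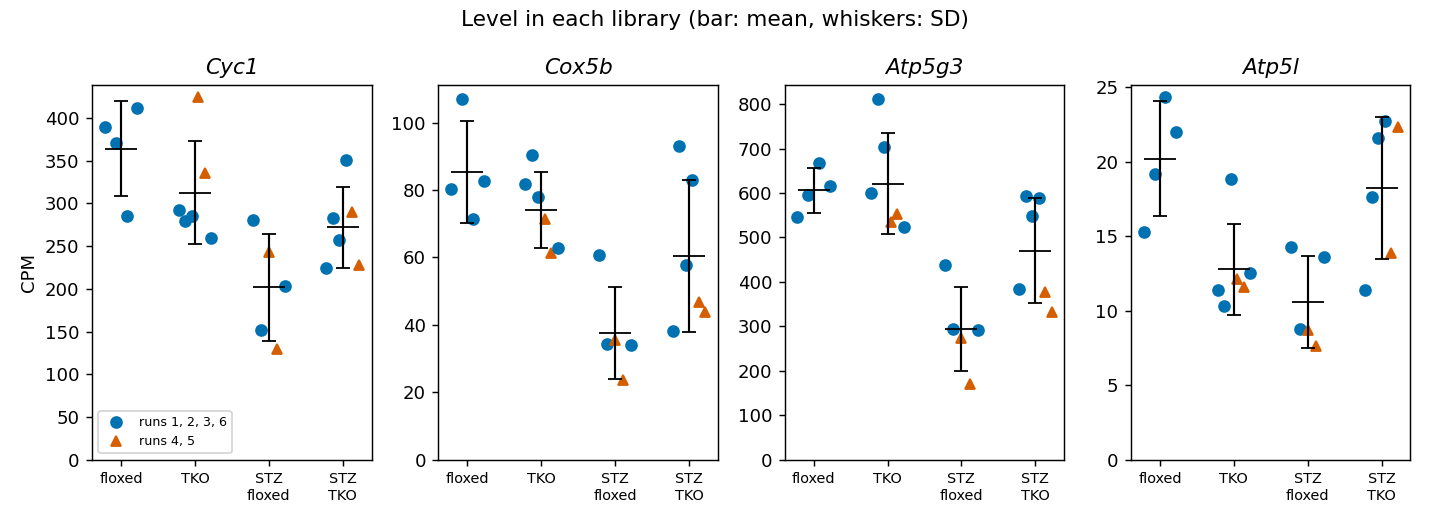
CPM of the 4 members that passed in any comparison, in each library (points), with the group mean (bar) and SD (whiskers); triangles mark runs 4 and 5. STZ floxed libraries lie at 23.6 to 60.7 CPM for Cox5b, below the 71.5 to 107 of the floxed libraries, and Atp5l is at 7.63 to 14.3 CPM in STZ floxed against 11.4 to 22.7 in STZ TKO muscle.

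No subunit passed the test for loss of FoxO without diabetes. In TKO against floxed muscle 0 of 40 members passed (edgeR, also 0 with DESeq2 and limma-voom, where 0.514% of all genes passed with edgeR), the median was -0.13 and 29 members were below zero. Only Atp5l, a g subunit of the ATP synthase membrane part, had an unadjusted p under 0.05 (-0.66 ± 0.23, adjusted p = 0.212), against 4.77% of all genes in that direction. Atp5l was at 15.3, 19.2, 24.3 and 22 CPM in the floxed libraries and at 11.4, 10.3, 18.8, 12.1, 11.6 and 12.5 in TKO libraries 2, 6, 10, 13, 16 and 20. Library 10 lay inside the floxed range and the other TKO libraries below it.

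By complex, the lowest and highest estimates were Sdhb (-0.32 ± 0.35) and Sdhd (-0.08 ± 0.23) in complex II, Uqcrq (-0.23 ± 0.55) and Uqcrh (0.08 ± 0.43) in III, Cox8b (-0.54 ± 0.65) and Cox7c (0.39 ± 0.45) in IV, and Atp5l and Atp5o (0.20 ± 0.58) in V. The smallest p in complexes II, III and IV were those of Sdhc (-0.28 ± 0.30), Cyc1 (-0.22 ± 0.21) and Cox8a (0.34 ± 0.34), with adjusted p of 0.832, 0.8 and 0.816 (edgeR). The direction of the median was not stable. It was -0.30 without library 6, -0.08 without 13, -0.07 without 16 and -0.04 without 20. It was above zero without scaling (0.02), with the run block (0.06) and without libraries 4, 15, 16 and 20 (0.06). Macrophage markers summed to 826 ± 634 CPM in TKO against 176 ± 20.9 in floxed muscle, and all 14 were higher; with their level as a covariate the median was 0.09. All 7 denervation markers were higher too (184 ± 225 against 39.3 ± 7.14 summed CPM), and their part was not tested.

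Under diabetes, muscle without FoxO had more of these transcripts than muscle with FoxO in 38 of 40 estimates, with a median of 0.54 against 0.03 over all genes. Atp5l rose past the threshold, which is 1 of 40 (edgeR), where 4.89% of all genes passed and 2.47% were higher: the share of members was near the background. At an unadjusted p under 0.05, 10 of 40 members were higher, a larger share than the 10.7% of all genes. No member had every STZ TKO library above every STZ floxed library.

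Atp5l (ENSMUSG00000038717, chr9:44912557-44920742) was at 14.3, 8.74, 8.71, 7.63 and 13.6 CPM in STZ floxed libraries 3, 7, 14, 17 and 21 and at 11.4, 17.6, 21.6, 22.7, 13.9 and 22.3 in STZ TKO libraries 4, 8, 11, 12, 15 and 18. The STZ TKO libraries 4 and 15 overlapped the STZ floxed range. The log2 fold change was 0.78 ± 0.22 (adjusted p = 0.0456). It is a low-count gene, with 27 to 141 counts per library, and an antisense gene overlaps 2.06% of its exons; the strand setting of the counting is not given in the sources used here.

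In complex II the highest estimate was Sdhb (0.49 ± 0.33), the lowest Sdha (0.10 ± 0.19) and the smallest p that of Sdhd (0.34 ± 0.22, adjusted p = 0.437). In complex III, Cycs was highest at 1.15 ± 0.43, which was also its smallest p (adjusted p = 0.131), and Uqcr11 lowest at 0.38 ± 0.46. In complex IV, Cox7c was highest at 1.24 ± 0.43 (adjusted p = 0.0997) and Cox6a2 lowest at -0.14 ± 0.28. Cox7c reached 565 CPM in STZ TKO library 8, against 69.4 to 134 in the other STZ TKO libraries. In complex V, Atp5j2 was highest at 1.14 ± 0.52 and Atp5d, the delta subunit of the stalk, lowest at -0.09 ± 0.35. Atp5g3 and Cox5b, which fell in STZ floxed muscle, were at 0.68 ± 0.21 (adjusted p = 0.0694) and 0.68 ± 0.24 (adjusted p = 0.107); the 2 comparisons share the STZ floxed libraries.

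The median depended on 1 library. STZ TKO library 8 had the highest mean level of all 21 (1.11), and without it the median was 0.19. This library was also the highest of all 21 for complex I subunits (1.21), mitochondrially encoded partners (1.65) and cytosolic ribosomal protein genes (1.00). Mitochondrially encoded transcripts took 8.46% of its counts, again the highest, so its high level was not particular to the members. Within runs, the STZ TKO library was lower than the STZ floxed library for 36 of 40 members in run 1 (median -0.46) and higher for 38 in run 2 (1.35), 33 in run 4 (0.28) and 38 in run 5 (0.73). With the run as a block no member passed and the median was 0.42; Atp5l was then at an adjusted p of 0.0671. Atp5l also missed the threshold with limma-voom (0.068) and without library 2, 5, 7, 8, 9, 11, 12, 13, 14, 16, 17, 18, 19 or 21, when p ranged up to 0.113. Limma-voom gave a median of 0.26. Macrophage markers summed to 1100 ± 897 CPM in STZ TKO and 215 ± 43.9 in STZ floxed muscle. With their level as a covariate 1 member passed (share of all genes not given). All 7 denervation markers were higher too (156 ± 64.9 against 75.6 ± 43.7 summed CPM, median 1.12), as were 7 of 8 fibroblast markers (median 0.51, 1 past the threshold) and all 5 tendon markers (median 0.79). All 8 endothelial markers (median -0.37) and 6 of 7 adipocyte markers (median -1.30) were lower. Slow fibre markers were higher for all 7 (median 0.37), and Myh2 was at 0.19. Fast 2B fibre markers were lower for 2 of 3 (median -0.24), 1 of them at an unadjusted p under 0.05 (edgeR). Muscle fibre markers were higher for 4 of 8 (median 0.07). No marker of these fibre lists passed. The part of these lists was not tested.

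Diabetes in muscle without FoxO gave 0 of 40 members past the threshold (edgeR, and 0 with DESeq2 and limma-voom), where 0.142% of all genes passed. The median was -0.21, with 30 members below zero. The 1 member with an unadjusted p under 0.05 was Atp5l, at 0.52 ± 0.21 (adjusted p = 0.379), against 6.84% of all genes that were higher by that rule. Atp5d was lowest at -0.69 ± 0.33 (adjusted p = 0.443). Cox5a (-0.47 ± 0.25), Sdha (-0.29 ± 0.18) and Cyc1 (-0.20 ± 0.19) had the smallest p in complexes IV, II and III, with adjusted p of 0.472, 0.533 and 0.685 (edgeR). The other extremes were Sdhd (-0.09 ± 0.21) in complex II, Uqcr11 (-0.32 ± 0.43) and Uqcrc2 (0.06 ± 0.22) in III, and Cox7a1 (-0.49 ± 0.65) and Cox7c (0.50 ± 0.40) in IV. The median was -0.48 without library 8, -0.32 without 16, -0.12 without 4 or without 18, -0.14 without 15, -0.13 without 17 and 18, and -0.04 without 6. Within runs the median was -0.82, 0.20, -0.24, -0.38 and -0.50 in runs 1 to 5, so run 2 differed in direction.

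Whether the STZ effect itself differed between genotypes was tested as an interaction. All 40 estimates were above zero, with a median of 0.65 against 0.01 over all genes. The estimated STZ effect without FoxO was thus less negative or, for the 10 members above zero in TKO muscle, positive. No member passed (edgeR, and 0 with DESeq2 and limma-voom), where 0.0079% of all genes did. At an unadjusted p under 0.05 there were 7 of 40 members, against 2.35% of all genes that were higher. The largest was Atp5l at 1.44 ± 0.32 (adjusted p = 0.48), followed by Cycs at 1.34 ± 0.61 and Cox7a1 at 1.24 ± 0.99, both with an adjusted p of 1. Cox6a2 was lowest at 0.01 ± 0.41. The lowest and highest were Sdha (0.24 ± 0.27) and Sdhb (0.81 ± 0.48) in complex II, Uqcr10 (0.40 ± 0.64) and Cycs in III, and Atp5d (0.06 ± 0.51) and Atp5l in V. Cox5b was at 0.88 ± 0.34, Atp5g3 at 0.64 ± 0.31 and Cyc1 at 0.65 ± 0.29, each with an adjusted p of 1. The median was 0.33 without library 8, 0.29 with the run as a block and 0.41 in the runs with a floxed library. Slow fibre markers were above zero in the interaction for all 7 (median 0.47) and muscle fibre markers for 7 of 8 (median 0.42). Fast 2B fibre markers were above zero for 2 of 3 (median 0.19). None of these markers passed, and their part was not tested.

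Diabetic muscle without FoxO was also set against untreated floxed muscle. No member passed (edgeR, and 0 with DESeq2 and limma-voom), where 2.53% of all genes did. The median was -0.32, with 34 of 40 members below zero. Of the 40, 4 were lower at an unadjusted p under 0.05, against 7.06% of all genes. Sdha and Atp5a1 had every STZ TKO library below every floxed library, 2 of 40 members against 3.32% of all genes, a share near the background. Sdha was at 697 to 901 CPM in STZ TKO and 1000 to 1190 in floxed muscle (-0.43 ± 0.20, adjusted p = 0.279). Atp5a1 was at 1020 to 1570 against 1590 to 2430 (-0.54 ± 0.23, adjusted p = 0.235). Cox7a1 was lowest at -0.90 ± 0.71 and Cox7c highest at 0.89 ± 0.45. Complex II ran from Sdhb (-0.61 ± 0.35) to Sdhd (-0.17 ± 0.23), III from Uqcr11 (-0.46 ± 0.48) to Uqcrb (0.05 ± 0.56) and V from Atp5d (-0.84 ± 0.37) to Atp5e (0.07 ± 0.40). In complexes III and IV the smallest p were those of Cyc1 (-0.42 ± 0.21, adjusted p = 0.317) and Cox5a (-0.58 ± 0.27, adjusted p = 0.287, edgeR). The median was -0.68 without library 8, -0.20 without 4, -0.17 without 15 and -0.19 without 18. It was -0.21 with the run block, -0.58 with limma-voom, -0.16 with the macrophage covariate -0.18 without 17 and 18, and -0.03 without libraries 4, 15, 16 and 20.

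The muscle isoforms of complex IV were compared with their widely expressed counterparts as count ratios within a library, which do not depend on scaling. Cox6a2 over Cox6a1 had a mean log2 ratio of 4.32 ± 0.28 (n = 4) in floxed, 4.02 ± 0.73 (n = 6) in TKO, 4.43 ± 0.60 (n = 5) in STZ floxed and 3.94 ± 0.32 (n = 6) in STZ TKO muscle. Cox7a1 over Cox7a2 was 1.18 ± 0.24, 0.85 ± 0.49, -0.21 ± 1.58 and 0.13 ± 0.62 in the same order. Cox8b over Cox8a was 2.49 ± 0.42, 1.53 ± 0.87, 1.27 ± 0.85 and 1.38 ± 1.16. The largest shifts were those of Cox7a1 and Cox8b in STZ floxed against floxed muscle, at -1.39 and -1.22. In 12 exact two-sided permutation tests the smallest p was 0.0397, for Cox8b in STZ floxed muscle (adjusted p = 0.305), where 4 against 5 libraries allow 0.00794 at best. The next was 0.0563 for Cox7a1 over Cox7a2 in STZ TKO against TKO muscle by the same exact test (adjusted p = 0.305). None of the 12 passed.

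**Figure D4:**
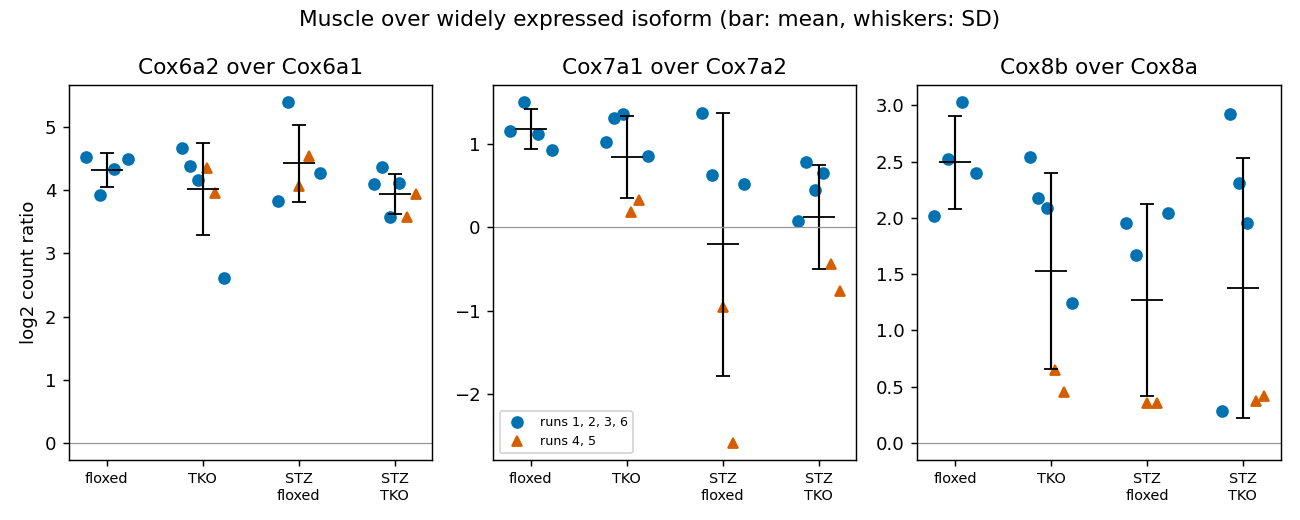
Log2 count ratio of each muscle isoform of complex IV over its widely expressed counterpart in every library (points), with group mean (bar) and SD (whiskers); triangles mark runs 4 and 5. In the right panel the 6 triangles lie at 0.35 to 0.65 in all 3 groups that hold them, and in the middle panel library 17 is at -2.59.

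Most members of every complex had a lower median in runs 4 and 5 than in the other runs, though Uqcrc2 was higher (548 against 499 CPM). The mean level of the members lay at -0.90 to -0.26 in run 4 and -1.45 to -0.17 in run 5. It was -0.45 to 0.43 in run 1, -0.17 to 1.11 in run 2, 0.12 to 0.54 in run 3 and -0.31 to 0.30 in run 6. Several complex IV genes did not overlap between runs 4 and 5 and the rest. Cox8b was at 3.27 to 7.51 CPM in the 6 libraries of runs 4 and 5, 2 of each group other than floxed, and at 9.26 to 56.8 in the other 15. Cox6b1 (24.5 to 89.6 against 130 to 791 CPM), Cox4i1 (67.6 to 161 against 182 to 532) and Cox7b (16 to 37.1 against 37.7 to 176) were split in the same way. So was Sdhc of complex II (53.1 to 125 against 127 to 265). The share of all genes split in this way is not given, so the split is not read as particular to these subunits. Cox7a1 (2.73 to 43.3 against 25.8 to 212) and Cox6a2 (173 to 262 against 210 to 630) overlapped. The Cox8b over Cox8a ratio of library 4 in run 1, 0.28, was below all 6 libraries of runs 4 and 5. In the runs with a floxed library the Cox8b shift in STZ floxed muscle was -0.61 and the Cox7a1 shift -0.34. The median SD of the members within groups was 0.61 log2 units, against 0.43 over all genes. Among genes of at most 736.5 bases it was 0.63 for members and 0.71 for all tested coding genes, and among longer genes 0.54 and 0.42. Cox7a1 (1.35), Cox6b1 (1.29) and Cox8b (1.19) scattered most and Sdha (0.28), Atp5b (0.31) and Cyc1 (0.31) least.

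Transcript length was also read beside the STZ effect, since small subunits have short transcripts. Members of at most 736.5 bases had a median of -0.85 and longer members -0.83. All tested coding genes up to that length had a median of -0.35 (n = 244) and longer ones 0.02. In STZ TKO against STZ floxed muscle the short members had a median of 0.57 and the longer members 0.51. All tested coding genes up to that length were there at a median of 0.26 and longer ones at 0.03. The part of transcript length in these results was not tested.

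Other parts of the same machinery were read from lists of related genes. Of 8 tested subunits of complexes II to V outside the members, Atp5mpl, a small ATP synthase subunit, fell in STZ floxed muscle (-0.99 ± 0.23, adjusted p = 0.0355), from 130 ± 32.2 to 65.7 ± 13.3 CPM. The list's median was -0.79. Of 34 assembly factors none passed in that comparison (12 at an unadjusted p under 0.05), with a median of -0.45. Of 5 mitochondrially encoded partners none passed, with 2 at an unadjusted p under 0.05 and a median of -0.65. Of 36 tested complex I subunits Ndufs8 passed (-1.01 ± 0.26, adjusted p = 0.0492, edgeR). All 36 were below zero, with a median of -0.77 and 17 at an unadjusted p under 0.05. Complex I thus had the same direction as the members, and also in 2 other comparisons. All 36 were above zero in STZ TKO against STZ floxed muscle (median 0.43), and 35 of 36 in the interaction (median 0.58). None passed in either. Cytosolic ribosomal protein genes, a list of other small abundant transcripts, had a median of 0.21 in STZ floxed against floxed muscle.

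Among 16 regulators of mitochondrial genes, 2 fell in STZ floxed muscle. The list's median was -0.13, with 12 below zero and 4 above. Ppara, a nuclear receptor for fatty acids that controls fat oxidation genes, fell by 1.40 ± 0.31 (adjusted p = 0.0269), from 22.6 ± 6.37 to 8.49 ± 1.53 CPM. Perm1, a muscle regulator acting with PGC-1 and estrogen-related receptors, fell by 1.07 ± 0.27 (adjusted p = 0.0488), from 257 ± 34.4 to 122 ± 42.7 CPM. The next 5 genes were chosen after their values were seen. Ppargc1a, which encodes PGC-1alpha, was at -0.99 ± 0.26 (adjusted p = 0.0611) and Esrra, its partner receptor, at -1.0 ± 0.29 (adjusted p = 0.0895). The factors of 3 promoter sequences given above, Yy1 (0.67 ± 0.23, adjusted p = 0.165), Nrf1 (0.49 ± 0.20, adjusted p = 0.255) and Gabpa (0.21 ± 0.22, adjusted p = 0.699), had estimates above zero that did not pass. In STZ TKO against STZ floxed muscle Ppard fell by 0.62 ± 0.18 (adjusted p = 0.04), and in STZ TKO against floxed muscle Ppara fell by 1.10 ± 0.29 (adjusted p = 0.0465). In the other comparisons none of the 16 passed (edgeR), with 3 at an unadjusted p under 0.05 in TKO against floxed, 1 in STZ TKO against TKO and 3 in the interaction.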

How the data were processed

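The authors deposited 1 table of raw read counts, with mouse Ensembl identifiers as rows. Per the submitters' processing notes, STAR and featureCounts were used with GRCm38.p4; versions, annotation, strand setting and handling of multi-mapping reads are not stated in the sources used. Per the labels' protocols the libraries are stranded. Libraries were grouped by their titles. Members and lists were chosen with earlier results of these data known. Symbols and coordinates came from GENCODE M21 (45229 identifiers matched; unmatched ones held 0.0478% of counts).

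Genes passing filterByExpr were tested with edgeR 4.0.16 in R 4.3.3: TMM scaling, robust quasi-likelihood fit of 4 group means to all 21 libraries (biological coefficient of variation 0.325), 6 two-sided contrasts, Benjamini-Hochberg over 12658 genes, threshold 0.05. Log2 CPM used a prior count of 2, ratios a pseudocount of 0.5. Named members were those past the threshold, the isoform sets, and per complex the smallest p and extreme estimates. Alternatives were DESeq2 1.42.0, limma-voom 3.58.1, other scaling, filters, covariates and left-out libraries. The edgeR script was tested on simulated counts. Restricting to runs with a floxed library was chosen after seeing the data. Depth, 2951290 to 7687823 counts, limits precision for low genes.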

Additional observations from a re-analysis of the deposited data

Results flagged for a closer look

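Mean levels, isoform ratios and the 4 named subunits were checked for a library far from the rest of its group. Of 48 such group-wise checks 2 stood out. Chance gives about 1 in 20, so 2 of 48 is near the chance rate. In TKO muscle the log2 count ratio of Cox6a2 over Cox6a1 was 2.61 in library 20, with the nearest TKO library at 3.96. In TKO muscle Atp5l was at 4.26 log2 CPM in library 10, with the nearest at 3.69.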

How the results depend on the processing

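In STZ floxed against floxed muscle 3 members passed; the number was 6 with DESeq2, 13 with limma-voom, 1 without libraries 17 and 18, 0 in the runs with a floxed library (chosen after seeing the data), and 0 to 6 when 1 library was left out. In STZ TKO against STZ floxed muscle 1 passed; the number was 2 without scaling, 3 with DESeq2, 0 without a filter, with the run block, without libraries 17 and 18, with only the 2 groups compared and in the runs with a floxed library, and 0 to 3 when 1 library was left out. Cox5b, Atp5g3, Cyc1 and Atp5l passed in 24, 24, 10 and 13 of 33 alternatives. The cause of these changes was not tested. Outside DESeq2 and limma-voom in STZ floxed muscle, the share of all genes called is not given for these alternatives. In the other 4 contrasts 0 members passed in every alternative run. With 1 library left out the median ranged from -1.02 to -0.61 for STZ in floxed muscle, -0.30 to -0.04 for TKO without STZ, 0.19 to 0.80 for TKO under STZ, -0.48 to -0.04 for STZ in TKO, 0.33 to 0.83 for the interaction and -0.68 to -0.17 for STZ TKO against floxed. The median for TKO without STZ changed sign to 0.02 without scaling, 0.06 with the run block, 0.09 with the macrophage covariate, 0.06 without libraries 4, 15, 16 and 20 and 0.09 in the runs with a floxed library.

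No isoform ratio passed under any alternative. Signs changed for Cox7a1 over Cox7a2 in TKO under STZ (-0.08 without libraries 17 and 18, -0.35 in the runs with a floxed library, -0.26 to 0.73 with 1 library left out). For Cox8b over Cox8a the STZ effect in TKO was 0.04 without 17 and 18, 0.03 without 4, 15, 16 and 20 and -0.46 to 0.07 with 1 library left out; the TKO effect under STZ was -0.02 in the runs with a floxed library and -0.21 to 0.32 with 1 left out. For Cox6a2 over Cox6a1 the TKO effect without STZ was 0.07 without 4, 15, 16 and 20, the STZ effect in TKO 0.08 in the runs with a floxed library and -0.36 to 0.05 with 1 left out, and the STZ effect in floxed muscle -0.14 to 0.25 with 1 left out. Library numbers pair no libraries, since none is shared between groups, and the run of library codes was the only block fitted. Depth limits Atp5l and Cox8a, the least counted tested members.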
